A study of Mus musculus with 36 samples.

Results

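The 10 genes described here encode amino acid transporters of the cell surface, measured across 36 RNA-seq libraries of mouse embryonic fibroblasts. The members were taken by name from the table of gene counts: Slc7a1, Slc7a3, Slc7a5, Slc7a11, Slc3a2, Slc38a1, Slc38a2, Slc1a4, Slc1a5 and Slc6a9. They are 10 of 36856 gene symbols in the table, and all 10 passed the filter on low counts that left 16065 genes for testing. The fibroblasts, grown from mouse embryos, had a WT genotype or were PERK -/-, that is, without the kinase PERK (called Perk-null from here on). Each genotype received the solvent DMSO, thapsigargin (Tg), BtdCPU, halofuginone (HF), BtdCPU with Tg, or HF with Tg, which makes 12 groups of 3 libraries. The labels give no dose, time or batch and name the cell line only as MEF, so genotype and cell line cannot be told apart. They do not say whether replicates are separate cultures, so p-values measure the spread between these libraries, which may be technical.

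Cells import amino acids through carriers of the solute carrier families, and many of the carrier genes are targets of the integrated stress response. In that response a kinase phosphorylates the translation factor eIF2 alpha, most protein synthesis slows, and the transcription factor ATF4 is made and raises genes that supply amino acids. PERK is the eIF2 alpha kinase of endoplasmic reticulum stress, which Tg causes by blocking the calcium pump of that organelle, while BtdCPU acts through the kinase HRI and HF, an inhibitor of prolyl-tRNA synthetase, through the kinase GCN2. The comparisons ask how far transporter transcripts depend on PERK under Tg, and how compounds acting through another kinase change them.

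ATF4 pairs with C/EBP proteins on a composite DNA element whose core was searched here as TGATGNAA on both strands of the RefSeq promoter windows (build GRCm38.p6, 250 bases before to 50 bases after a gene's start). Windows were at hand for 6 of the 10 genes (9 windows in all): Slc7a1, Slc7a11, Slc3a2, Slc38a2, Slc1a4 and Slc6a9. Slc7a11 held 2 matches and Slc1a4 held 1, and the other 4 genes held none in these windows. Of 32851 windows of the same length, 3.97% held at least 1 match and 0.07% held at least 2. Transcripts of Slc7a11 and Slc1a4 rose with all 3 treatments in WT cells, as did those of Slc7a1, Slc3a2 and Slc6a9, which held no match. The stretches shown hold the only matches among the windows of the members, and capitals mark the matched letters. Both are written 5′ to 3′ on the minus strand, which is the strand of the genes, and lie upstream of the start apart from the last bases of the Slc1a4 stretch, which are the first of its transcript. The Slc7a11 stretch lies at chr3:50443629-50443715, where the matches span bases -66 to -59 and -47 to -40 counted from the gene's start as 0, the latter read on the opposite strand.
Slc7a11: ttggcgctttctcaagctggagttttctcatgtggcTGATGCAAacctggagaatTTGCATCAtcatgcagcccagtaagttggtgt
The Slc1a4 stretch lies at chr11:20332710-20332753, and its match spans bases -4 to 3, also read on the opposite strand.
Slc1a4: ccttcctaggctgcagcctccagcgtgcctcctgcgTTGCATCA
A match is a description of letters and not evidence of binding, and no match says only that these letters are not in this window.

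Libraries held 32454257 to 37178107 counts. Eif2ak3, the gene of PERK, stood at 30.3 to 32.4 CPM (the count as a rate of the scaled library total) in the WT DMSO libraries and at 9.37 to 10.8 CPM in the Perk-null DMSO libraries, and it was lower in Perk-null cells without overlap in all 6 treatments. Its transcript still rose with Tg in Perk-null cells (log2 1.46 ± 0.19, SE, against 1.49 ± 0.18 in WT cells). There it reached 25.0 to 31.2 CPM with Tg and 28.1 to 35.4 CPM with HF and Tg, overlapping the WT DMSO libraries. The summed fibroblast markers stood at 15364 to 35503 CPM over all libraries. They stood at 25657 to 31814 CPM in WT DMSO, 16908 to 20496 CPM in WT Tg and 16821 to 19874 CPM in Perk-null DMSO. Among them Lum was low (median 0.454 CPM), with no count in 3 libraries. Emcn (endothelial) and Plin1 (adipocyte) had no count in any of the 36 libraries, but other genes of their lists did. The endothelial list summed to 0.2379 to 4.711 CPM over all libraries and was highest in WT HF (3.037 to 4.711 CPM). The adipocyte list, mostly Lipe and Fabp4, summed to 1.09 to 18.12 CPM and was highest in Perk-null Tg (14.99 to 18.12 CPM). Epcam, Krt5, Lyz2, Adgre1, Myod1 and Sox2 were at or below 0.243 CPM in each library, but other genes of their lists were higher. The epithelial list, with Cdh1 up to 0.953 CPM, summed to 0.057 to 0.347 CPM in WT DMSO and 0.915 to 1.88 CPM in WT Tg. The muscle list, with Ttn up to 1.13 CPM, summed to 0.0308 to 1.37 CPM over all libraries. The neural list, nearly all Tubb3 and Map2, summed to 60.2 to 74.4 CPM in WT DMSO and 205 to 241 CPM in WT Tg. The 6 macrophage markers summed to 4.43 to 4.70 CPM in WT DMSO, 7.25 to 10.1 CPM in Perk-null DMSO, 11.6 to 17.1 CPM in Perk-null Tg and 14.7 to 23.2 CPM in Perk-null BtdCPU with Tg, mostly from Csf1r and Cd68, with Adgre1 at 0 in 29 and Lyz2 in 31 libraries. The part of these marker shifts in the results was not tested. WT BtdCPU replicate 2, WT HF replicate 3 and WT HF with Tg replicate 3 lay farthest from their group mates (root mean square log2 distance 0.413, 0.394 and 0.341, against 0.137 to 0.312 for the others). The RefSeq and GENCODE annotations differ in the overlaps they show. In RefSeq alone Slc7a3 overlaps Snx12 and Slc38a1 overlaps the non-coding Gm32457, while Slc6a9 overlaps Ccdc24 in both. In GENCODE alone Slc7a5 overlaps Gm20388 on the opposite strand, and Slc6a9 also overlaps B4galt2 and the non-coding Gm17114. Slc7a11 overlaps, also in GENCODE alone, the antisense Gm37854, the processed pseudogenes Gm37826, Gm37692 and Gm2345, and the unclassified Gm37498. The use of strand in counting is not given in the sources used here, so their counts may include reads of the neighbour. Group means of Snx12 were 41.0 to 58.6 CPM, beside 0.391 to 1.55 CPM for Slc7a3. Those of Gm32457 were at most 0.392 CPM, beside 24.7 to 124 CPM for Slc38a1. Beside Slc6a9, at 30.15 to 297 CPM, Ccdc24 was at most 3.29 CPM and B4galt2 stood at 39.4 to 105 CPM. The part of such reads in the counts was not tested.

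Between untreated genotypes, Perk-null cells carried more transcript of Slc1a5 and Slc3a2 and less of Slc38a1 and Slc38a2 than WT cells, and the other 6 genes did not pass the test. Slc1a5, an exchanger of neutral amino acids including glutamine, stood at 20.8, 24.6 and 32.2 CPM in WT replicates 1, 2 and 3 and at 58.8, 65.6 and 62.3 CPM in Perk-null replicates. Every Perk-null library lay above every WT library. The difference was 1.27 ± 0.13 on the log2 scale (SE, edgeR adjusted p = 5.93e-10, n = 3 against 3). Slc3a2, the heavy chain that binds the light chains encoded by Slc7a5 and Slc7a11 and carries them to the membrane, stood at 215, 193 and 198 CPM in WT and at 361, 386 and 473 CPM without PERK (1.01 ± 0.16, SE). Slc38a1, a sodium-coupled importer of glutamine and other neutral amino acids, stood at 52.4, 46.9 and 66.4 CPM in WT and at 23.0, 22.4 and 28.6 CPM without PERK (-1.16 ± 0.14). The groups did not overlap for either gene. Slc38a2, a carrier of the same family that also imports alanine and proline, was lower by a smaller amount (-0.37 ± 0.11, SE), and its call was lost without Perk-null DMSO replicate 2 (-0.27) or without WT DMSO replicate 3 (-0.30). Of all tested genes, 24.6% were called higher and 24.9% lower in Perk-null cells, so 2 of 10 in each direction is near the background. Slc7a11 ran from 1.55 to 4.02 CPM in WT DMSO libraries, the highest being replicate 2. Without that replicate its genotype difference moved from 0.48 to 1.05 and was called higher, and Slc7a1 (0.42) was called higher at 0.54 without WT DMSO replicate 3.

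**Figure D1:**
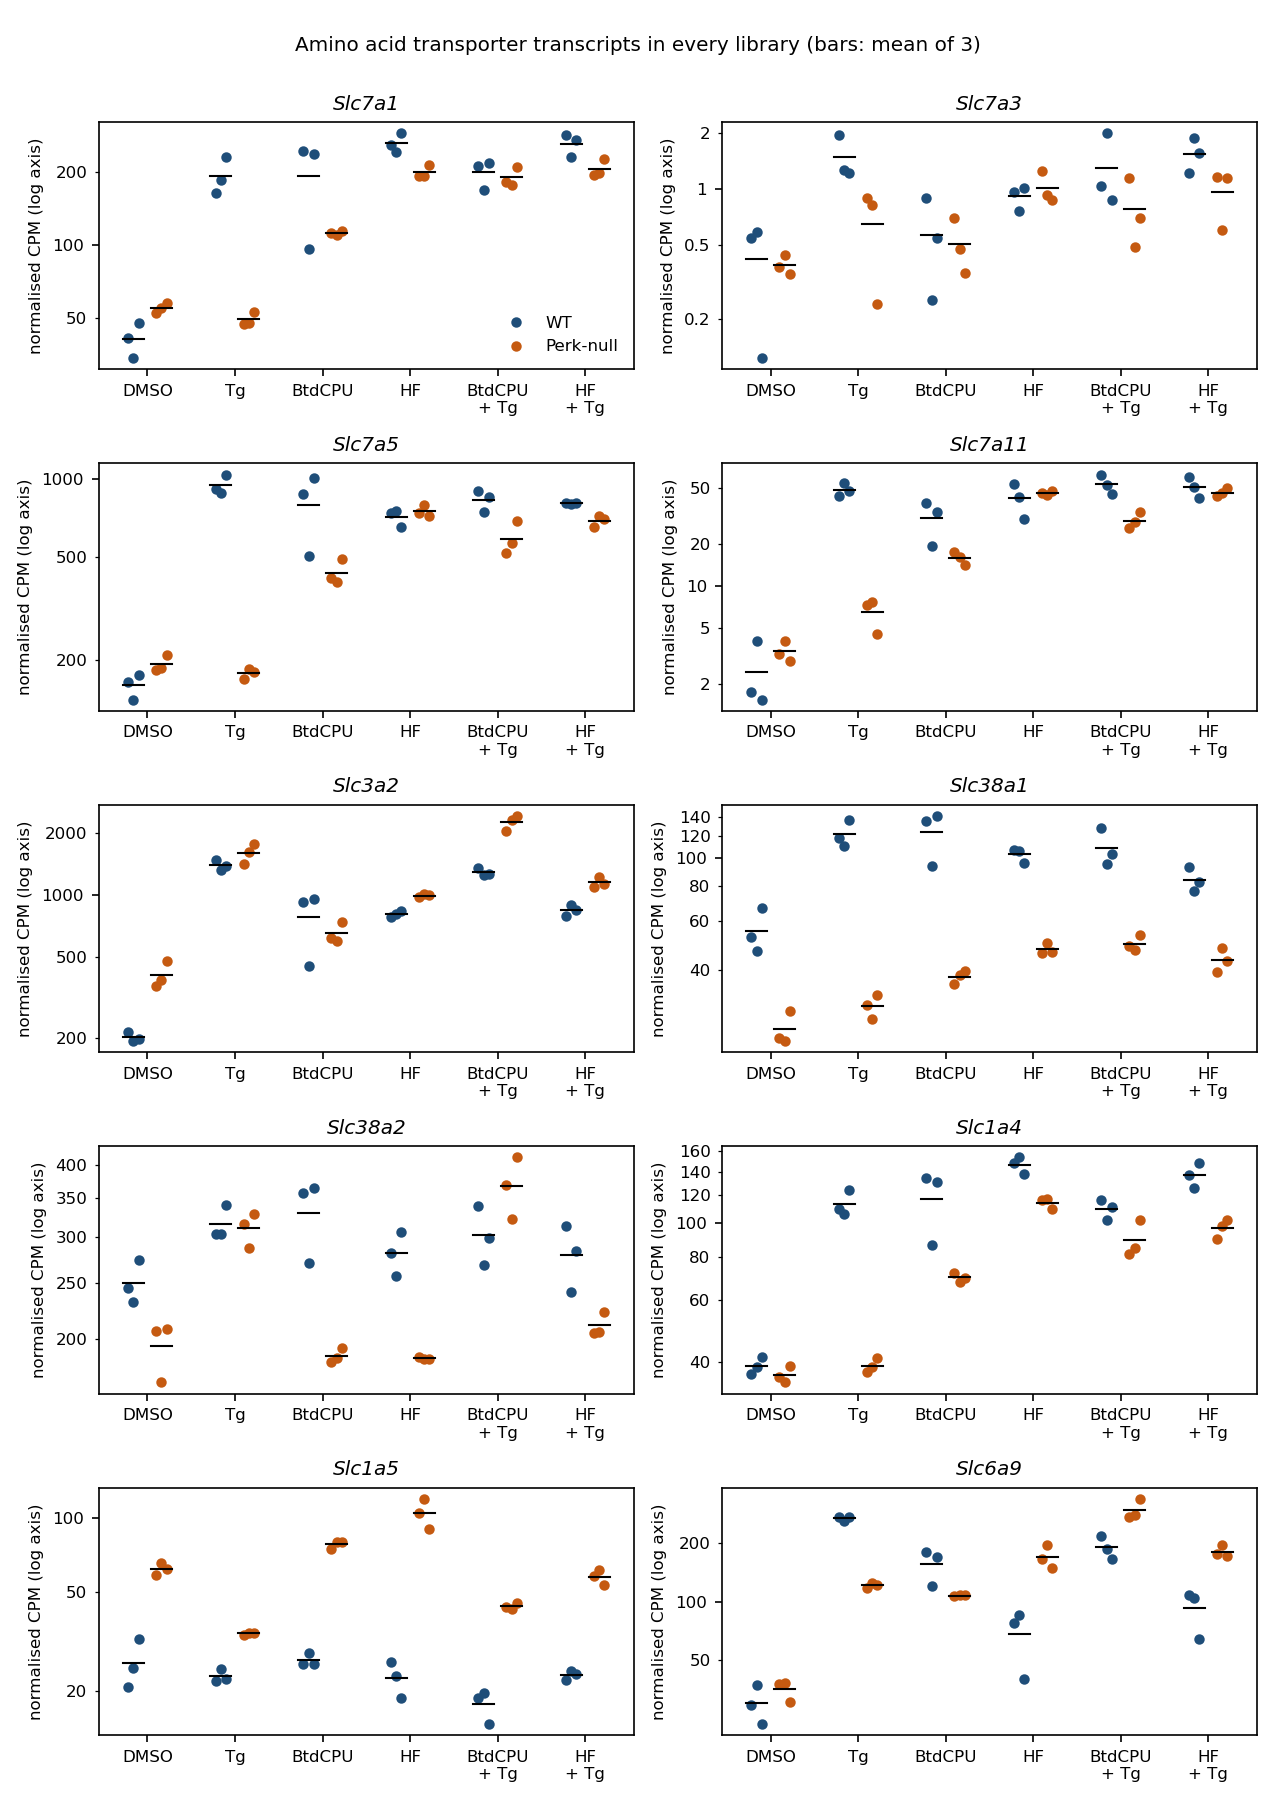
Normalised CPM (log axis) of the 10 transporter genes by treatment, with WT libraries in blue, Perk-null libraries in orange, 1 point per library and a bar at the mean of 3. Slc7a5 stands at 885 to 1039 CPM in WT Tg libraries and at 169 to 185 CPM in Perk-null Tg libraries, and Slc1a5 is higher in every Perk-null library than in any WT library.

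Tg raised 9 of the 10 transporter transcripts in WT cells, the exception being Slc1a5, and the median log2 fold change of the 10 was 2.02 against 0.02 over all tested genes. Of all tested genes, 24.9% were called higher and 22.7% lower. Slc7a11, whose product imports cystine in exchange for glutamate and so feeds glutathione synthesis, stood at 1.74, 4.02 and 1.55 CPM in DMSO and at 43.9, 54.4 and 47.3 CPM in Tg. No Tg library came near a DMSO library, and the fold was 19.8 (log2 4.31 ± 0.28, SE, edgeR adjusted p = 1.06e-13). Slc7a5, the light chain of the leucine and large neutral amino acid carrier, went from 164, 141 and 175 CPM to 912, 885 and 1039 CPM (log2 2.56 ± 0.15). Its heavy chain partner Slc3a2 went from 215, 193 and 198 CPM to 1480, 1322 and 1383 CPM (log2 2.79 ± 0.16). Both chains lay far above the DMSO libraries in every Tg library.

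The other WT rises with Tg covered glycine, cationic and neutral amino acid carriers. Slc6a9, a glycine transporter, went from 29.6, 37.3 and 23.6 CPM to 275, 261 and 273 CPM (fold 8.93, log2 3.16 ± 0.21, SE), with no overlap. Slc7a1, which imports arginine and lysine, went from 41.4, 34.1 and 47.4 CPM to 164, 187 and 231 CPM (log2 2.24 ± 0.20). Slc7a3, a cationic amino acid carrier of the same family, had the lowest level of the 10, at 0.12 to 0.59 CPM in DMSO and 1.22 to 1.95 CPM in Tg (log2 1.79 ± 0.47, edgeR adjusted p = 0.00217). Slc1a4, an exchanger of serine, alanine and cysteine, went from 36.9, 38.9 and 41.3 CPM to 109, 106 and 124 CPM (log2 1.53 ± 0.11). Slc38a1 rose by 1.14 ± 0.14 and Slc38a2 by 0.34 ± 0.11, from 245, 231 and 274 CPM to 304, 303 and 341 CPM. The Slc38a2 call was lost without WT DMSO replicate 1 (0.27), WT DMSO replicate 2 (0.24) or WT Tg replicate 3 (0.23). Slc1a5 did not pass (-0.17 ± 0.13), though it was called lower, at -0.36, without WT DMSO replicate 1.

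In Perk-null cells Tg raised 4 of the 10, namely Slc3a2, Slc6a9, Slc7a11 and Slc38a2, and lowered Slc1a5. The comparison used the Perk-null DMSO libraries, and 15.2% of all tested genes were called higher and 12.7% lower. The median over the 10 was 0.48 (all tested genes 0.05). Slc3a2 went from 361, 386 and 473 CPM to 1416, 1623 and 1770 CPM (log2 1.98 ± 0.16, SE), so its Tg level overlapped that of WT cells. Slc7a5 stood at 169, 185 and 180 CPM against 183, 186 and 209 CPM in DMSO (log2 -0.12 ± 0.15, edgeR adjusted p = 0.613), and the groups overlapped. Slc7a1 (47.2, 47.8 and 52.9 CPM against 52.2, 54.7 and 57.6 CPM) and Slc1a4 (37.5, 38.8 and 41.0 CPM against 36.3, 35.0 and 39.1 CPM) likewise overlapped between the groups. In Tg, then, the heavy chain libraries of both genotypes overlapped, while every Perk-null library of the light chain Slc7a5 lay below every WT library.

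Slc6a9 went from 37.6, 38.4 and 30.6 CPM to 118, 125 and 122 CPM in Perk-null cells (log2 1.77 ± 0.20, SE), below every WT Tg library. Slc7a11 went from 3.28, 4.08 and 2.93 CPM to 7.29, 7.72 and 4.51 CPM (log2 0.92 ± 0.27, edgeR adjusted p = 0.00907), and its call was lost without Perk-null Tg replicate 1 (0.78) or replicate 2 (0.78). Slc38a2 went from 206, 168 and 208 CPM to 316, 287 and 328 CPM (log2 0.68 ± 0.11), without overlap. Slc1a5 fell from 58.8, 65.6 and 62.3 CPM to 33.7, 34.3 and 34.4 CPM (log2 -0.87 ± 0.12, edgeR adjusted p = 2.36e-06), with every Tg library below every DMSO library. Slc7a3 ran from 0.24 to 0.89 CPM and did not pass (0.73 ± 0.49). Slc38a1 missed the threshold (0.27 ± 0.14) and reached it with the replicate block (0.28, edgeR adjusted p = 0.0489).

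The response to Tg differed between the genotypes for 8 of the 10 genes, each lower in Perk-null cells, where 18.6% of all tested genes were called lower and 19.5% higher by the same test. The differences were largest for Slc7a11 (-3.38 ± 0.38, SE, edgeR adjusted p = 2.32e-08), Slc7a5 (-2.68 ± 0.21) and Slc7a1 (-2.40 ± 0.27). They were -1.45 ± 0.16 for Slc1a4, -1.38 ± 0.28 for Slc6a9, -0.87 ± 0.20 for Slc38a1, -0.81 ± 0.22 for Slc3a2 and -0.69 ± 0.18 for Slc1a5. Slc38a2 went the other way, with a response 0.34 ± 0.16 higher in Perk-null cells that missed the threshold (edgeR adjusted p = 0.0978) and reached it once replicate numbers were blocked (0.34, edgeR adjusted p = 0.00912). Slc7a3 did not pass (-1.07 ± 0.68). The median over the 10 was -1.23, against 0.03 over all tested genes.

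**Figure D2:**
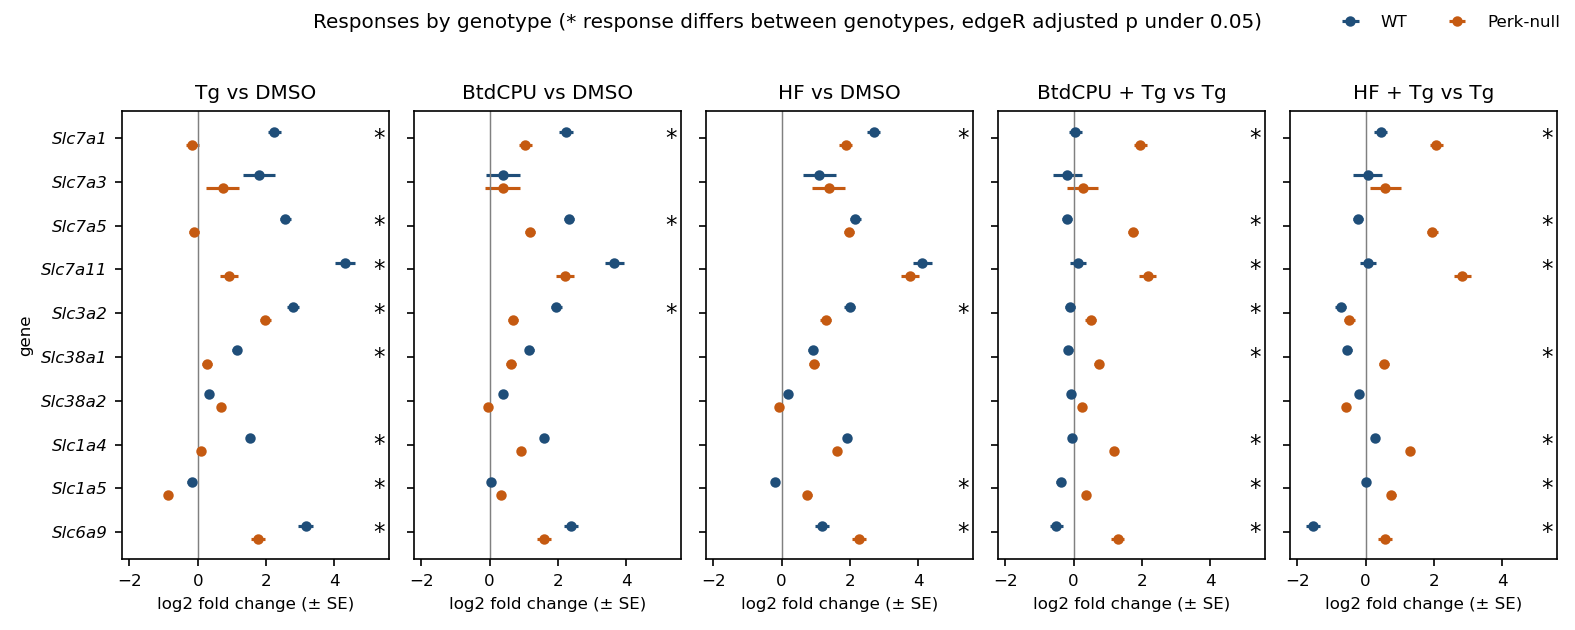
Log2 fold change (± SE from edgeR) of each transporter in WT (blue) and Perk-null (orange) cells for 5 comparisons, with an asterisk where the response differs between genotypes at an edgeR adjusted p under 0.05. Under Tg the Slc7a5 response is 2.56 in WT and -0.12 in Perk-null cells, and adding BtdCPU or HF to Tg moves the Perk-null value by 1.73 or 1.96.

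BtdCPU alone raised 8 of the 10 transcripts in WT cells, where Slc7a3 and Slc1a5 did not pass, and the median over the 10 was 1.77 (all tested genes -0.01). Of all tested genes 12.9% were called higher and 9.31% lower, and the higher share of all calls went from 58.1% to 45.1% when libraries were scaled by their totals alone. WT BtdCPU replicate 2 stood below its mates in 9 of the 10 genes, all but Slc1a5. Slc7a11 reached 39.0, 19.4 and 33.8 CPM (log2 3.65 ± 0.28, SE), above every DMSO library. Slc7a5 reached 873, 505 and 1007 CPM (log2 2.31 ± 0.15) and Slc3a2 926, 450 and 954 CPM (log2 1.94 ± 0.16). All 3 libraries of both genes lay above the DMSO libraries, with replicate 2 lowest. The SEs rest on a spread shared by all 12 groups, so they do not show the scatter of these libraries.

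Slc7a1 reached 244, 96.6 and 239 CPM with BtdCPU in WT cells (log2 2.24 ± 0.20, SE), Slc6a9 181, 120 and 171 CPM (log2 2.38 ± 0.21) and Slc1a4 134, 86.5 and 131 CPM (log2 1.59 ± 0.11). The carriers of the Slc38 family had smaller fold changes. Slc38a1 reached 136, 93.7 and 141 CPM (log2 1.16 ± 0.14) and Slc38a2 358, 270 and 365 CPM (log2 0.40 ± 0.11). The Slc38a2 range overlapped that of DMSO, and its call was lost without WT BtdCPU replicate 1 (0.33), WT BtdCPU replicate 3 (0.31) or WT DMSO replicate 2 (0.34). Slc1a5 stood at 25.6, 28.5 and 25.6 CPM, inside the DMSO range (log2 0.04 ± 0.13).

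In Perk-null cells BtdCPU raised 7 of the 10, where 2.55% of all tested genes were called higher and 1.04% lower. The median over the 10 was 0.80, against 0.00 over all tested genes. Slc7a11 reached 17.5, 16.1 and 14.1 CPM (log2 2.21 ± 0.26, SE, edgeR adjusted p = 1.17e-06) and Slc6a9 107, 108 and 108 CPM (log2 1.60 ± 0.20). Slc7a5 reached 413, 399 and 491 CPM (log2 1.17 ± 0.15), Slc7a1 113, 111 and 115 CPM (log2 1.04 ± 0.19) and Slc1a4 71.8, 67.9 and 69.6 CPM (log2 0.92 ± 0.11). These 5 genes did not overlap their DMSO libraries. Slc3a2 rose by 0.68 ± 0.15 and Slc38a1 by 0.62 ± 0.14. Their calls were lost without Perk-null DMSO replicate 1 (0.60 and 0.57), Slc3a2 also without Perk-null BtdCPU replicate 3 (0.58) and Slc38a1 also without Perk-null DMSO replicate 2 (0.55). Slc1a5 (0.33), Slc7a3 (0.38) and Slc38a2 (-0.06) did not pass.

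The BtdCPU response was weaker in Perk-null cells for 3 genes, where 0.162% of all tested genes were called lower and 0.0373% higher. They were Slc3a2 (-1.26 ± 0.22, SE, edgeR adjusted p = 0.00298), Slc7a5 (-1.14 ± 0.21, edgeR adjusted p = 0.00523) and Slc7a1 (-1.20 ± 0.27, edgeR adjusted p = 0.0499). This count moved with the library that stood apart: without WT BtdCPU replicate 2 it was 8 of 10, and it was 0 when only the compared groups entered the fit. With the replicate block it was 7, adding Slc1a4 (-0.65, edgeR adjusted p = 0.00686), Slc38a1 (-0.53, edgeR adjusted p = 0.0442), Slc38a2 (-0.45, edgeR adjusted p = 0.0168) and Slc7a11 (-1.44, edgeR adjusted p = 0.0456). The Slc7a1 call was lost on leaving out any of 10 single libraries, all but WT BtdCPU replicate 2 and WT DMSO replicate 3 of the 12, with values from -1.23 to -0.99. Slc7a11 was called lower without WT DMSO replicate 2 (-2).

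HF alone raised 8 of the 10 transcripts in WT cells, the exceptions being Slc38a2 and Slc1a5, and the median over the 10 was 1.54 (all tested genes 0.00). HF changed many genes: 34.7% of all tested genes were called higher and 33.4% lower. Scaling by library totals alone put the median of all genes at -0.11. Slc7a11 reached 53.8, 43.3 and 29.9 CPM (log2 4.11 ± 0.28, SE), Slc7a1 259, 243 and 291 CPM (log2 2.69 ± 0.20) and Slc7a5 736, 754 and 650 CPM (log2 2.16 ± 0.15). Each lay far above the WT DMSO libraries, which these comparisons share with Tg and BtdCPU. Slc3a2 reached 782, 804 and 832 CPM (log2 2.00 ± 0.16) and Slc1a4 148, 154 and 138 CPM (log2 1.91 ± 0.12). Slc6a9 reached 78.0, 85.9 and 39.9 CPM (log2 1.17 ± 0.20), where replicate 3 came close to the highest DMSO library at 37.3 CPM. Slc38a1 rose by 0.90 ± 0.14, to 107, 106 and 96.6 CPM.

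Slc7a3 passed narrowly with HF in WT cells, at 0.96, 0.76 and 1.02 CPM (log2 1.10 ± 0.48, SE, edgeR adjusted p = 0.0434). Its call was lost without WT DMSO replicate 1 (1.26) or replicate 3 (0.62) and without any single HF replicate (0.96 to 1.16). Slc38a2 missed the threshold (0.17 ± 0.11) and reached it with the replicate block (0.17, edgeR adjusted p = 0.0425). Slc1a5 did not pass (-0.20 ± 0.13), and was called lower without WT DMSO replicate 1 (-0.39) or WT HF replicate 1 (-0.37).

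In Perk-null cells HF raised 9 of the 10, Slc38a2 being the exception, with a median of 1.5 (all tested genes 0.00). Of all tested genes 21.2% were called higher and 21.0% lower. Slc7a11 reached 46.0, 44.8 and 47.6 CPM (log2 3.75 ± 0.27, SE), inside the range of WT HF. Slc7a5 reached 741, 795 and 719 CPM (log2 1.96 ± 0.15) and Slc6a9 166, 196 and 150 CPM (log2 2.26 ± 0.21), the latter above every WT HF library. Slc7a1 reached 194, 194 and 216 CPM (log2 1.87 ± 0.20), Slc1a4 116, 117 and 109 CPM (log2 1.63 ± 0.11) and Slc3a2 976, 1012 and 994 CPM (log2 1.29 ± 0.16). Slc1a5 reached 105, 119 and 90.4 CPM (log2 0.75 ± 0.12, edgeR adjusted p = 9.47e-06), its highest levels among the 12 groups. Slc38a1 rose by 0.94 ± 0.14, and Slc7a3 by 1.37 ± 0.48 with a call that was lost without Perk-null DMSO replicate 1 (1.36) or 3 (1.30) or Perk-null HF replicate 1 (1.21).

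The HF response differed between genotypes for 4 genes. It was higher in Perk-null cells for Slc6a9 (1.09 ± 0.28, SE, edgeR adjusted p = 0.00312) and Slc1a5 (0.95 ± 0.18), and lower for Slc7a1 (-0.82 ± 0.27) and Slc3a2 (-0.71 ± 0.22). By this test 17.5% of all tested genes were called higher and 17.5% lower, so 2 of 10 in each direction is near the background. The Slc7a1 call was lost without WT DMSO replicate 2 (-0.64) or WT HF replicate 3 (-0.68).

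Set beside each other, HF gave higher levels than BtdCPU for 7 of the 10 genes in Perk-null cells, where 17.9% of all tested genes were called higher and 18.1% lower. The difference was 1.54 ± 0.24 (SE) for Slc7a11, 0.84 ± 0.19 for Slc7a1, 0.79 ± 0.15 for Slc7a5, 0.71 ± 0.11 for Slc1a4, 0.67 ± 0.20 for Slc6a9, 0.61 ± 0.15 for Slc3a2 and 0.42 ± 0.12 for Slc1a5. The Slc1a5 call was lost without Perk-null HF replicate 2 (0.32). In WT cells HF was higher than BtdCPU for Slc7a1 (0.45 ± 0.19) and Slc1a4 (0.32 ± 0.11) and lower for Slc6a9 (-1.21 ± 0.20), where 32.4% of all tested genes were called higher and 31.9% lower. These WT counts, 2 of 10 higher and 1 lower, lay below the background. The WT counts rest on the library that stood apart: without WT BtdCPU replicate 2, Slc7a1 (0.09) and Slc1a4 (0.10) were not called, Slc7a5 (-0.44), Slc38a1 (-0.47) and Slc38a2 (-0.40) were called lower, and Slc3a2 turned from 0.05 to -0.27 and was called lower. Those of Slc7a1 and Slc1a4 were also lost without WT HF replicate 1 (0.42 and 0.27) or replicate 2 (0.46 and 0.24), and that of Slc7a1 without WT HF replicate 3 (0.34). Slc7a11 (0.46) was called higher without WT BtdCPU replicate 1 (0.63) or WT HF replicate 3 (0.62), Slc38a2 lower without WT HF replicate 3 (-0.34), and Slc1a5 (-0.23) lower without WT HF replicate 1 (-0.40). Doses are not given, so the compounds were compared as used.

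Adding BtdCPU to Tg in WT cells gave calls for 0 of the 10 by edgeR, with 2 lower at an unadjusted p under 0.05 and 1 called lower by DESeq2. Of all tested genes 1.29% were called higher and 1.02% lower, and the higher share of these calls went from 55.9% to 80.7% when libraries were scaled by their totals alone. The largest fitted values were -0.50 ± 0.20 (SE) for Slc6a9, at 217, 188 and 166 CPM against 275, 261 and 273 CPM in Tg alone, and -0.37 ± 0.13 for Slc1a5, at 18.8, 19.6 and 14.7 CPM against 21.9, 24.5 and 22.3 CPM. Neither gene's groups overlapped, and the replicate block put Slc1a5 past the threshold (-0.37, edgeR adjusted p = 0.0356). Slc7a5 stood at 900, 743 and 852 CPM, overlapping Tg alone.

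In Perk-null cells adding BtdCPU to Tg raised 8 of the 10, where 17.3% of all tested genes were called higher and 18.3% lower. The median over the 10 was 0.97 (all tested genes -0.04). Slc7a11 reached 25.9, 28.5 and 33.6 CPM against 7.29, 7.72 and 4.51 CPM in Tg alone (log2 2.17 ± 0.25, SE). Slc7a1 reached 183, 178 and 211 CPM (log2 1.95 ± 0.20) and Slc7a5 516, 563 and 687 CPM (log2 1.73 ± 0.15). No library of these 3 genes overlapped Tg alone, and Slc7a1 lay inside the range of the WT Tg libraries while Slc7a5 lay below it.

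Slc6a9 reached 273, 279 and 338 CPM with BtdCPU and Tg in Perk-null cells (log2 1.29 ± 0.20, SE) and Slc3a2 2047, 2317 and 2431 CPM (log2 0.50 ± 0.15), the highest mean of both genes among the 12 groups. Slc1a4 reached 81.6, 85.0 and 102 CPM (log2 1.19 ± 0.11) and Slc38a1 48.6, 47.1 and 53.4 CPM (log2 0.74 ± 0.14). Slc1a5 rose to 43.5, 42.9 and 45.5 CPM (log2 0.37 ± 0.12), still below the Perk-null DMSO libraries. The calls of Slc1a5 (0.34) and Slc3a2 (0.45) were lost without Perk-null BtdCPU with Tg replicate 3. Slc38a2 missed the threshold (0.25 ± 0.11) and reached it with the replicate block (0.24, edgeR adjusted p = 0.00873) or without Perk-null BtdCPU with Tg replicate 2 (0.33).

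The response to the added BtdCPU was higher in Perk-null than in WT cells for 8 of the 10 genes, where 10.7% of all tested genes were called higher and 10.1% lower. The higher share of those calls went from 51.6% to 41.4% when libraries were scaled by their totals alone. The differences were 2.03 ± 0.34 (SE) for Slc7a11, 1.91 ± 0.21 for Slc7a5 (edgeR adjusted p = 7.4e-08), 1.91 ± 0.27 for Slc7a1, 1.79 ± 0.28 for Slc6a9 and 1.24 ± 0.16 for Slc1a4. They were 0.89 ± 0.19 for Slc38a1, 0.74 ± 0.18 for Slc1a5 and 0.61 ± 0.22 for Slc3a2. The Slc3a2 value (edgeR adjusted p = 0.0436) was lost on leaving out any of 8 single libraries (0.56 to 0.65): Perk-null BtdCPU with Tg replicate 2 or 3, Perk-null Tg replicate 1 or 2, any WT BtdCPU with Tg replicate, or WT Tg replicate 1. It was also lost with scaling by totals alone (0.53). The block put Slc38a2 past the threshold (0.31, edgeR adjusted p = 0.0239).

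Adding HF to Tg in WT cells lowered Slc6a9, Slc3a2 and Slc38a1 and raised Slc1a4, where 22.5% of all tested genes were called lower and 22.8% higher. With 3 of 10 lower and 1 higher, the counts were near or below the background. The median over the 10 was -0.08 (all tested genes 0.00). Slc6a9 fell from 275, 261 and 273 CPM to 108, 105 and 64.2 CPM (log2 -1.54 ± 0.20, SE, edgeR adjusted p = 2.22e-07), with no overlap. Slc3a2 fell from 1480, 1322 and 1383 CPM to 789, 894 and 845 CPM (log2 -0.73 ± 0.15), overlapping the level under HF alone. Slc38a1 fell to 93.1, 76.4 and 82.1 CPM (log2 -0.54 ± 0.14). Slc1a4 rose by 0.27 ± 0.11 (edgeR adjusted p = 0.043), to 137, 126 and 148 CPM, and its call was lost without WT HF with Tg replicate 1 (0.26) or 3 (0.19) and without WT Tg replicate 1 (0.23) or 2 (0.21). Slc7a1 missed the threshold (0.44 ± 0.19, edgeR adjusted p = 0.0553) and reached it with the replicate block (0.44, edgeR adjusted p = 0.0121), as did Slc38a2 as a decrease (-0.18, edgeR adjusted p = 0.0394). Slc7a1 also passed without WT HF with Tg replicate 2 (0.53) or WT Tg replicate 3 (0.56). Slc7a5 (-0.23) and Slc7a11 (0.06) did not pass.

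In Perk-null cells adding HF to Tg raised 7 of the 10 and lowered Slc38a2 and Slc3a2, where 25.2% of all tested genes were called higher and 27.5% lower. The median over the 10 was 0.67 (all tested genes -0.01). Slc7a11 reached 43.6, 45.7 and 49.6 CPM (log2 2.83 ± 0.25, SE), Slc7a1 196, 200 and 226 CPM (log2 2.07 ± 0.20) and Slc7a5 653, 719 and 700 CPM (log2 1.96 ± 0.15). All 3 were far above Tg alone, and Slc7a11 and Slc7a1 reached the range of the WT Tg libraries. Slc1a4 reached 89.6, 97.6 and 102 CPM (log2 1.30 ± 0.11), Slc1a5 58.4, 61.4 and 53.3 CPM (log2 0.76 ± 0.12) and Slc6a9 175, 195 and 172 CPM (log2 0.57 ± 0.20). Slc38a1 rose by 0.54 ± 0.14. Slc3a2 fell from 1416, 1623 and 1770 CPM to 1090, 1229 and 1136 CPM (log2 -0.48 ± 0.15), and Slc38a2 from 316, 287 and 328 CPM to 205, 206 and 222 CPM (log2 -0.56 ± 0.11), without overlap for either gene. The Slc3a2 call was lost without Perk-null Tg replicate 3 (-0.40) and the Slc6a9 call without Perk-null HF with Tg replicate 2 (0.52).

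The response to the added HF was higher in Perk-null than in WT cells for 7 of the 10, where 15.9% of all tested genes were called higher and 16.9% lower. The differences were 2.77 ± 0.34 (SE) for Slc7a11, 2.19 ± 0.21 for Slc7a5 (edgeR adjusted p = 2.55e-09), 2.12 ± 0.28 for Slc6a9, 1.63 ± 0.27 for Slc7a1, 1.08 ± 0.19 for Slc38a1, 1.03 ± 0.16 for Slc1a4 and 0.75 ± 0.18 for Slc1a5. Slc3a2, lowered in both genotypes, did not pass (0.25 ± 0.22). Slc38a2 did not pass (-0.38 ± 0.16), and was called lower without WT HF with Tg replicate 2 (-0.48). The comparisons with Tg and with DMSO share the Tg libraries, so their values stand side by side only.

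**Figure D3:**
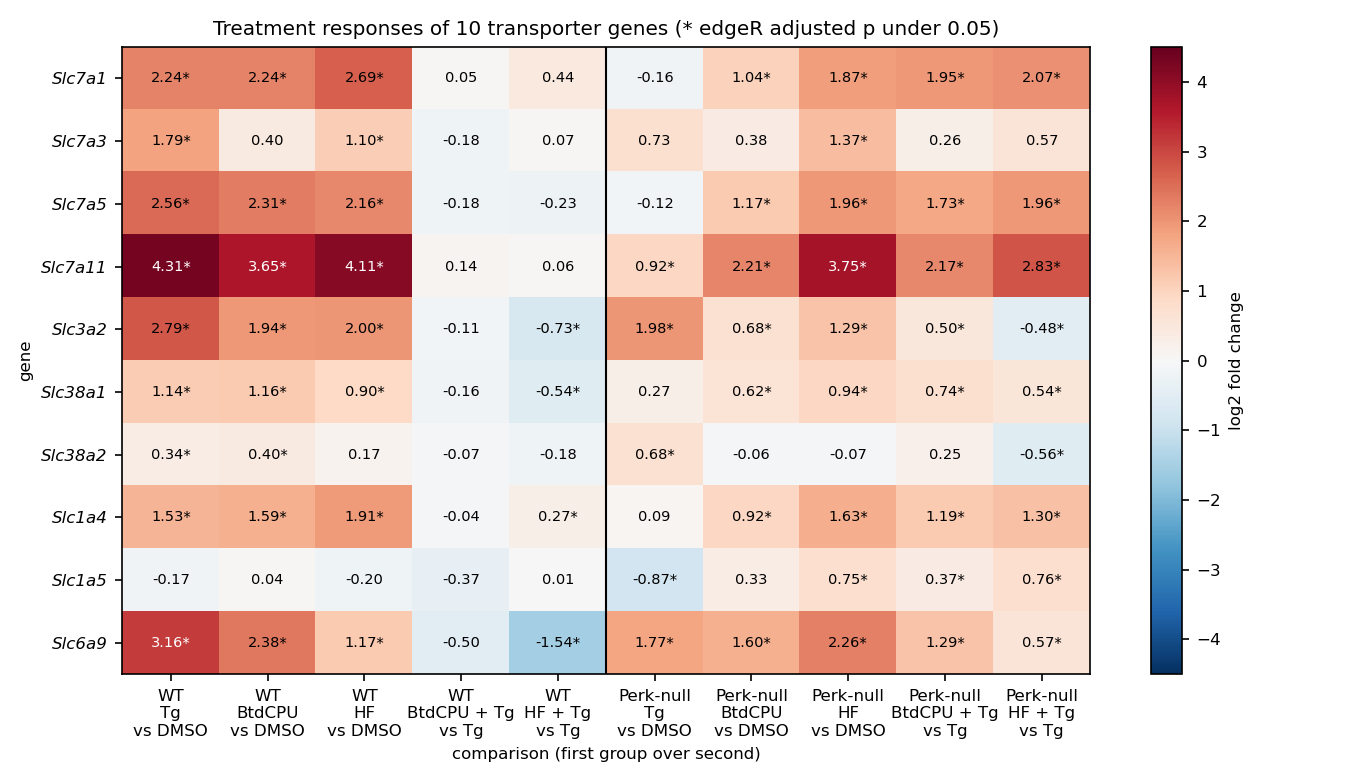
Log2 fold change of the 10 transporters in 10 comparisons, WT on the left and Perk-null on the right, with the value in each cell and an asterisk at an edgeR adjusted p under 0.05. In Perk-null cells Tg leaves Slc7a1 at -0.16, Slc7a5 at -0.12 and Slc1a4 at 0.09, and adding BtdCPU or HF gives values from 1.19 to 2.07 for these 3 genes.

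Because Slc3a2 is the shared heavy chain, its transcript was set against each light chain as a log2 ratio of CPM per kilobase of exon. Slc3a2 over Slc7a5 was 0.61, 0.68 and 0.39 in WT DMSO and 0.92, 0.80 and 0.63 in WT Tg, which overlap. In Perk-null cells it was 1.20, 1.27 and 1.40 in DMSO and 3.28, 3.36 and 3.52 in Tg, the highest of the 12 groups, a difference of 2.10. It stood at 2.21, 2.26 and 2.04 with BtdCPU and Tg (-1.22 against Tg) and at 0.96, 0.99 and 0.92 with HF and Tg (-2.43). No library overlapped between these Perk-null groups. Slc3a2 over Slc7a11 was 8.65, 7.29 and 8.70 in WT DMSO and 6.78, 6.31 and 6.57 in WT Tg (-1.66), whereas in Perk-null cells it was 8.49, 8.27 and 9.04 in DMSO and 9.31, 9.42 and 10.3 in Tg (1.08). The ratio to this light chain was thus lower in WT Tg and higher in Perk-null Tg than in DMSO. In all 20 comparisons of ratios were made, each by an exact permutation test (two-sided, 3 libraries against 3) that can give no p below 0.1 (0.125 after Benjamini-Hochberg adjustment), so none could pass 0.05. The differences named here each had that smallest p, apart from Slc3a2 over Slc7a5 in WT Tg against DMSO (p = 0.2, exact permutation test).

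**Figure D4:**
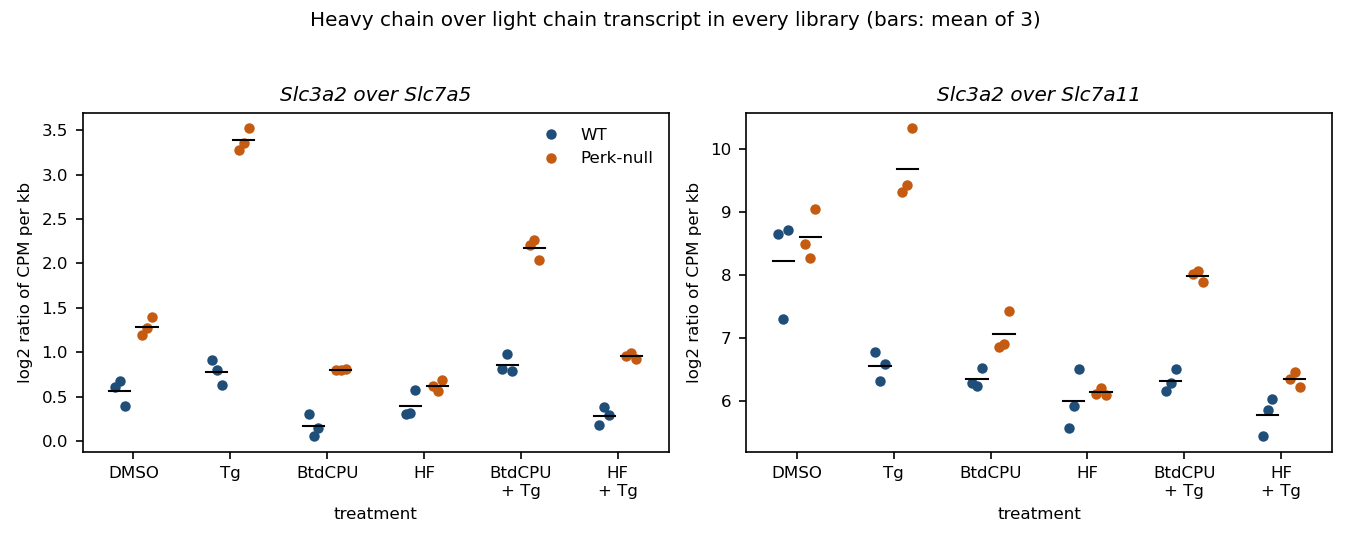
Log2 ratio of CPM per kilobase of Slc3a2 over Slc7a5 (left) and over Slc7a11 (right) by treatment, WT in blue and Perk-null in orange, 1 point per library and a bar at the mean of 3. In the left plot the Perk-null Tg libraries lie between 3.28 and 3.52, above all other libraries.

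Per kilobase of exon, Slc3a2 was the most abundant member in all 12 groups. It made up 32.7% of the summed level of the 10 in WT DMSO libraries, 48.5% in WT Tg, 47.4% in Perk-null DMSO and 74.2% in Perk-null Tg. Slc7a5 held 22.2% of the sum in WT DMSO, 28.2% in WT Tg, 19.4% in Perk-null DMSO and 7.11% in Perk-null Tg. Slc38a2 held 26.2% in WT DMSO and 7.12% in WT Tg, a lower share at a higher level. Slc7a3 held at most 0.0775% of the sum (WT HF with Tg).

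Across the 12 groups the range of mean levels was widest for Slc7a11 (highest over lowest 21.9), Slc3a2 (11.2) and Slc6a9 (9.85), and narrowest for Slc38a2 (1.99). Slc7a5 was highest in WT Tg (945 CPM) and lowest in WT DMSO (160 CPM). Its 8 highest groups overlapped in turn, then Perk-null BtdCPU (434 CPM) stood clear on both sides, and the 3 lowest, Perk-null DMSO, Perk-null Tg and WT DMSO, overlapped in turn. Slc7a1 and Slc7a11 had the same kind of lower end. For Slc7a1 the 3 lowest groups were again Perk-null DMSO (54.9 CPM), Perk-null Tg (49.3 CPM) and WT DMSO (41.0 CPM). For Slc7a11 Perk-null Tg (6.51 CPM) stood clear of Perk-null DMSO (3.43 CPM), which overlapped WT DMSO (2.44 CPM).

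For 2 other members the groups ordered by genotype. For Slc1a5 the 6 Perk-null groups, from HF (105 CPM) through BtdCPU (78.2 CPM), DMSO (62.2 CPM), HF with Tg (57.7 CPM) and BtdCPU with Tg (43.9 CPM) to Tg (34.1 CPM), all stood above the 6 WT groups (17.7 to 26.5 CPM), which overlapped in turn. For Slc38a1 the WT groups (55.2 to 124 CPM) stood above the Perk-null groups (24.7 to 49.7 CPM), though WT DMSO overlapped Perk-null BtdCPU with Tg, HF, and HF with Tg. Slc38a2 was high in Perk-null cells in the groups with Tg (311 CPM) and BtdCPU with Tg (368 CPM) and lower in HF with Tg (211 CPM), DMSO (194 CPM), BtdCPU (187 CPM) and HF (185 CPM), and those 4 groups overlapped in turn. Slc6a9 was highest in Perk-null BtdCPU with Tg (297 CPM) and WT Tg (269 CPM), which overlapped. For Slc1a4 the order ran from WT HF (147 CPM) to Perk-null DMSO (36.8 CPM), with Perk-null Tg (39.1 CPM), WT DMSO (39.0 CPM) and Perk-null DMSO overlapping at the low end. All neighbours in the order of Slc7a3, from WT HF with Tg (1.55 CPM) to Perk-null DMSO (0.39 CPM), overlapped. Slc3a2 ran from Perk-null BtdCPU with Tg (2265 CPM), clear of all others, to WT DMSO (202 CPM), also clear.

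Likeness between genes was taken as Pearson's r of log2 CPM over the 12 group means, which share libraries and treatments, against 10228 genes with a mean log2 CPM of at least 2. Of the 45 pairs of members, Slc7a1 and Slc1a4 (0.98), Slc7a5 and Slc7a11 (0.97), Slc7a1 and Slc7a5 (0.97) and Slc7a1 and Slc7a11 (0.97) were the most alike. Slc3a2 was most like Slc6a9 among the members (0.88) and less like its light chain genes Slc7a11 (0.66) and Slc7a5 (0.53). Slc1a5 had negative values with Slc38a2 (-0.75) and Slc38a1 (-0.73). Over all genes, those most like Slc7a1 were Yars (0.99), Gadd45a and Bre, those most like Slc1a4 were Cars (0.99), Fyn and Eprs, and those most like Slc7a11 were Gpt2 (0.99), LOC105246825 and Gadd45a. Yars, Cars and Eprs encode aminoacyl-tRNA synthetases. Slc7a5 was most like LOC105246825 (0.997), Gpt2 and Cyb5r1, Slc3a2 most like Tax1bp1 (0.96), Ccser1 and Zfp874b, and Slc6a9 most like Kdm4a (0.98), Gm20071 and Mdfic. For Slc38a1 they were Rbms3 (0.98), P3h2 and Srp72, for Slc38a2 Rhoq (0.93), Gigyf2 and Eya4, and for Slc1a5 Mrpl16 (0.98), Dnajc11 and Prkar2a. Slc7a3, itself below the level filter, was most like Adar (0.97), Cpox and Mknk1.

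A list of 11 transcription factors held to act on these transporters was drawn from textbook knowledge and not checked here. Of these, 9 rose and Mycn fell with Tg in WT cells, while 4 rose and Myc fell in Perk-null cells. Over all tested genes Tg raised 24.9% and lowered 22.7% in WT cells, and raised 15.2% and lowered 12.7% in Perk-null cells. Atf4 transcript averaged 360 ± 38.7 CPM (SD, n = 3) in untreated WT libraries and 1408 ± 87.7 CPM in WT Tg, and at 582 ± 58.1 CPM in Perk-null DMSO, 721 ± 62.4 CPM in Tg, 1370 ± 74.5 CPM with BtdCPU and Tg and 831 ± 62.3 CPM with HF and Tg. Adding BtdCPU to Tg raised Atf4 in Perk-null cells (log2 0.93 ± 0.11, SE), and adding HF gave 0.21 ± 0.11, which did not pass (edgeR adjusted p = 0.107). Ddit3, whose product CHOP pairs with C/EBP proteins, stood at 13.6 ± 2.62 and 345 ± 35.9 CPM in WT DMSO and Tg, and at 20.8 ± 1.99, 47.8 ± 12.3, 396 ± 19.8 and 216 ± 31.4 CPM in Perk-null DMSO, Tg, BtdCPU with Tg and HF with Tg. Atf3, a stress-induced factor, went from 2.60 ± 0.38 and 4.48 ± 0.54 CPM in Perk-null DMSO and Tg to 51.1 ± 3.63 CPM with BtdCPU and Tg and 86.0 ± 7.50 CPM with HF and Tg.

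Cebpg, a partner of ATF4, stood at 12.1 ± 2.34 CPM in Perk-null Tg, 28.0 ± 2.69 CPM with BtdCPU and Tg and 39.1 ± 1.58 CPM with HF and Tg. Myc, a growth-promoting transcription factor that acts on glutamine carriers, fell in Perk-null Tg (124.6 ± 8.48 to 51.1 ± 1.38 CPM) and rose with Tg in WT cells (91.4 ± 18.5 to 301 ± 42.3 CPM), and the genotypes differed by -3.01 ± 0.27 (SE). Nupr1, a stress-induced chromatin protein, stood at 31.3 ± 7.45 CPM in Perk-null Tg and 99.9 ± 16 CPM in WT Tg, and Cebpb at 79.8 ± 7.76 and 119 ± 33.9 CPM. Nfe2l2, whose product acts on Slc7a11 under oxidative stress, and Atf5 were lower in untreated Perk-null cells (73.2 ± 3.82 against 169 ± 8.76 CPM, and 51.1 ± 5.29 against 124.4 ± 16.3 CPM). Cebpa stood at 0.48 ± 0.13 CPM in Perk-null DMSO and 2.83 ± 0.11 CPM in WT DMSO. Mycn had no count in any Perk-null library, against 8.72 ± 0.91 CPM in WT DMSO. Of the 11, BtdCPU alone raised 8 in each genotype, and HF alone raised 9 in each and lowered 1 in Perk-null cells. Over all tested genes BtdCPU alone raised 12.9% in WT and 2.55% in Perk-null cells, and HF alone raised 34.7% in WT cells and raised 21.2% and lowered 21.0% in Perk-null cells. Added to Tg, HF raised 5 and lowered 2 of the 11 in WT cells, against 22.8% raised and 22.5% lowered of all tested genes. In Perk-null cells HF added to Tg raised 8 of the 11 (25.2% of all tested genes), and BtdCPU raised 8 and lowered 1 (17.3% and 18.3%).

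Other amino acid carriers were listed from textbook knowledge by where they are held to sit, which was not checked here. With Tg in WT cells, 4 of 17 tested plasma membrane carriers (36 listed) rose and 5 fell, 2 of 9 lysosomal carriers rose and 1 fell, and 2 of 10 mitochondrial carriers rose and 5 fell, beside 24.9% raised and 22.7% lowered of all tested genes. Their median log2 fold changes were 0.02, 0.03 and -0.13, against 0.02 over all tested genes. Carriers are named here and for the other treatments from those that passed the test with a mean log2 CPM of at least 2 over all libraries. Of these, the largest rises were those of Slc38a7, a lysosomal glutamine carrier (20.5 ± 1.39 to 58.0 ± 1.94 CPM, SD, log2 1.5), and Slc25a38, a mitochondrial glycine carrier (23.4 ± 1.84 to 45 ± 2.75 CPM, log2 0.95), and the largest falls those of the glutamate transporter Slc1a3 (10.4 ± 0.91 to 2.67 ± 0.63 CPM, log2 -1.95) and the taurine transporter Slc6a6 (221 ± 33.5 to 87.2 ± 5.39 CPM, log2 -1.34). In Perk-null cells with Tg, which raised 15.2% and lowered 12.7% of all tested genes, 7 of the 9 lysosomal carriers rose, among them the cystine exporter Ctns (8.11 ± 1.43 to 16.6 ± 1.75 CPM, log2 1.04) and Slc38a9 (8.44 ± 1.00 to 17.3 ± 0.27 CPM, log2 1.03). Of the plasma membrane carriers 4 rose and 1 fell there, and of the mitochondrial carriers 2 rose and 3 fell, Slc25a22 (log2 -0.81) and Slc25a15 (log2 -0.71) most.

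BtdCPU in WT cells raised 1 and lowered 3 of the 17 plasma membrane carriers, and raised 2 lysosomal and 2 mitochondrial ones, beside 12.9% raised and 9.31% lowered of all tested genes. In Perk-null cells, where it raised 2.55% and lowered 1.04% of all tested genes, the 1 call among the 3 lists was Slc38a7 (24.9 ± 3.25 to 57.6 ± 2.91 CPM, log2 1.21). The 2 largest rises in WT cells were those of Slc38a7 (log2 1.67) and Ctns (log2 0.93), and the 2 largest falls those of Slc7a6 (log2 -0.51) and Slc38a10 (log2 -0.35). HF in WT cells raised 4 and lowered 9 of the 17, raised 4 and lowered 3 lysosomal carriers, and raised 1 and lowered 8 of the 10 mitochondrial carriers, beside 34.7% raised and 33.4% lowered of all tested genes. There Slc38a7 rose (log2 1.65), as did the lysosomal histidine carrier Slc15a4 (log2 1.21), while Slc38a10 (357 ± 21.3 to 115 ± 7.08 CPM, log2 -1.63) and the arginine transporter Slc7a2 (log2 -1.45) fell. In Perk-null cells HF raised 4 and lowered 5 of the 17, lowered 6 and raised 1 of the lysosomal and lowered 5 and raised 1 of the mitochondrial carriers, beside 21.2% raised and 21.0% lowered of all tested genes. Slc38a7 (log2 1.53) and Sfxn1, a mitochondrial serine carrier (log2 0.27), led the rises, and Slc66a1 (log2 -0.92) and Slc25a12 (log2 -0.88) the falls.

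When BtdCPU was added to Tg, the 1 call in WT cells among the 3 lists was Slc38a10 (log2 -0.42), with 1.29% of all tested genes raised and 1.02% lowered. In Perk-null cells it raised 1 and lowered 3 of the plasma membrane, raised 2 and lowered 2 of the lysosomal and raised 2 and lowered 2 of the mitochondrial carriers, beside 17.3% raised and 18.3% lowered of all tested genes. Slc38a7 went from 33.9 ± 1.51 to 103 ± 13.1 CPM (SD, log2 1.60) and Ctns rose by 0.74, while Slc38a4 (158 ± 5.53 to 91.8 ± 7.88 CPM, log2 -0.79) and Slc6a6 (log2 -0.64) fell. Adding HF to Tg raised 1 and lowered 3 of the plasma membrane, raised 1 and lowered 3 of the lysosomal and lowered 5 of the mitochondrial carriers in WT cells, beside 22.8% raised and 22.5% lowered of all tested genes. There Slc15a4 rose (log2 0.94), and Mfsd12 (log2 -1.56) and Slc25a22 (log2 -1.06) fell most. In Perk-null cells it raised 3 and lowered 7, raised 1 and lowered 7, and raised 3 and lowered 3 of the same lists, beside 25.2% raised and 27.5% lowered of all tested genes. The 2 largest rises there were those of Slc38a7 (log2 0.98) and Sfxn1 (log2 0.60), and the 2 largest falls those of Slc66a1 (log2 -1.56) and Slc38a4 (log2 -1.48).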

How the data were processed

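Bulk RNA-seq was measured in 36 libraries, grouped by the genotype and treatment the labels state. The authors deposited 1 table of unscaled estimated counts for genes, in which 0.025 takes the place of 0 (50.6% of values). Per the submitters' processing notes GRCm39 and DESeq were used; the aligner and counter are not given in the sources used here. Entries named by dates (27) were left out, repeated symbols summed, and counts rounded. Genes were tested with edgeR 4.0.16 (R 4.3.3): filterByExpr, TMM, a robust quasi-likelihood fit of 12 group means, 18 contrasts, Benjamini-Hochberg adjustment over 16065 genes, called under 0.05. An interaction is the Perk-null response minus the WT response. SEs are log2 fold changes divided by the root of F. They rest on a spread estimated for each gene over all 12 groups together, so they do not show the scatter within a single group. CPM used TMM-scaled library sizes (prior count 2 for log2), and lengths were GENCODE merged exons. The fit was tested on simulated data, where missed changes lay mostly in genes of low counts, as Slc7a3 is here. Recovery was asked only of genes with a mean log2 CPM of at least 2, after a first criterion over all levels had failed. The simulation used independent libraries and the same dispersion for all genes, so it holds no outlying library and no replicate pairing.

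Members and lists were chosen with earlier results of these data known. All 10 members are named in each comparison, other carriers by the 2 largest rises and falls among called genes with a mean log2 CPM of at least 2, and 3 genes by likeness. Same-numbered replicates deviated together (each r above 0.1, lowest 0.102) in 8 of 13 contrasts of 2 groups, so the block was used there as an alternative. The pairing comes from the replicate numbers in the labels. Among them, not every library was most alike to its own number for BtdCPU against DMSO in either genotype. The same held for BtdCPU added to Tg in WT cells. Alternatives were RLE or library-size scaling, DESeq2 1.42.0, other filters, only the compared groups, the block and leaving out each library. Genes below the filter were not analysed here.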

Additional observations from a re-analysis of the deposited data

Results flagged for a closer look

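In 30 cases a transporter's response to a treatment differed between the genotypes by the edgeR interaction test (Perk-null response minus WT response, log2, adjusted p under 0.05). For Tg against DMSO these were -3.38 for Slc7a11, -2.68 for Slc7a5, -2.40 for Slc7a1, -1.45 for Slc1a4, -1.38 for Slc6a9, -0.87 for Slc38a1, -0.81 for Slc3a2 and -0.69 for Slc1a5. By that test 18.6% of all tested genes were called lower and 19.5% higher. For BtdCPU against DMSO the differences were -1.26 for Slc3a2, -1.20 for Slc7a1 and -1.14 for Slc7a5, beside 0.162% of all tested genes called lower and 0.0373% higher. The Slc7a1 call (edgeR adjusted p = 0.0499) was lost on leaving out most single libraries. For HF against DMSO the differences were 1.09 for Slc6a9, 0.95 for Slc1a5, -0.82 for Slc7a1 and -0.71 for Slc3a2. Here 17.5% of all tested genes were called higher and 17.5% lower, so the number of HF calls is near the background.

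For BtdCPU added to Tg the values were 2.03 for Slc7a11, 1.91 for Slc7a5, 1.91 for Slc7a1, 1.79 for Slc6a9, 1.24 for Slc1a4, 0.89 for Slc38a1, 0.74 for Slc1a5 and 0.61 for Slc3a2. Of all tested genes 10.7% were called higher and 10.1% lower. The Slc3a2 call (edgeR adjusted p = 0.0436) was lost on leaving out most single libraries. For HF added to Tg the values were 2.77 for Slc7a11, 2.19 for Slc7a5, 2.12 for Slc6a9, 1.63 for Slc7a1, 1.08 for Slc38a1, 1.03 for Slc1a4 and 0.75 for Slc1a5. There 15.9% of all tested genes were called higher and 16.9% lower. The contrasts against Tg and those of Tg against DMSO share the Tg libraries. Genotype and cell line cannot be told apart in any of them.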

How the results depend on the processing

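Of 180 log2 fold changes of the transporters, direction and side of the threshold held for 180 with at least 10 counts in 3 libraries, 179 with RLE size factors, 176 with DESeq2, 172 with scaling by totals, 168 without a filter, 166 with only the compared groups and 164 with the replicate block. Leaving out 1 library at a time kept 1299 of 1380 values, with 58 calls lost, 22 gained and 1 reversed: Slc3a2, HF against BtdCPU in WT cells, which ranged from -0.27 (without WT BtdCPU replicate 2) to 0.18. The number of genes with a weaker BtdCPU response in Perk-null cells (3) was 5 with DESeq2, 6 without a filter, 0 with only the compared groups, 7 with the block and 2 to 8 on leaving out libraries. For HF against BtdCPU in WT cells the 2 higher calls became 0 with only the compared groups (0 to 3 on leaving out libraries), and the 1 lower call became 3 with scaling by totals, without a filter and with the block (1 to 5). Higher calls in untreated Perk-null cells (2) were 4 with scaling by totals and without a filter, and the lower ones 1 to 2 on leaving out libraries.

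For BtdCPU added to Tg in WT cells the 0 lower calls became 1 with DESeq2, without a filter and with the block. For HF added to Tg in WT cells the 1 higher call became 2 with DESeq2 and with the block (0 to 2 on leaving out libraries). For HF in WT cells the 0 lower calls became 1 with scaling by totals (0 to 1). Leaving out libraries gave 0 to 1 lower calls for Tg in WT cells, 1 to 2 for HF added to Tg in Perk-null cells and 1 to 2 for the HF interaction. The interaction of HF with Tg had 1 lower call with the block (0 to 1 on leaving out libraries), and that of Tg 1 higher call with the block. The causes were not tested. Where replicate numbers did not pair the samples, the block also called Slc38a1 (0.33) for HF against BtdCPU in Perk-null cells, and Slc38a1 (-0.24) and Slc38a2 (-0.22) in WT cells; apart from those and the ones named beside the results it changed no other call of a transporter in the contrasts of 2 groups, and it put the HF with Tg interaction of Slc38a2 at -0.37. For Slc7a3 the number of reads limits the precision.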
